A study of Mus musculus with 6 samples.

Results

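The acute phase serum proteins are plasma proteins that the liver makes in larger amounts during infection or injury. The 10 genes described here were chosen by name from 54118 gene models. They were serum amyloid A (Saa1, Saa2, Saa3 and Saa4), serum amyloid P (Apcs), haptoglobin (Hp), hemopexin (Hpx), the orosomucoids Orm1 and Orm2, and lipocalin 2 (Lcn2). Primary hepatocytes of C57BL/6 mice were cultured in RPMI medium with fetal bovine serum and infected overnight, with adenovirus that carried either HuR or, as the control, beta-Gal (the bacterial enzyme beta-galactosidase). There were 3 samples of each group, both had therefore received a virus, and the age and sex of the mice are not given in the sources used here. HuR, encoded by Elavl1, is an RNA-binding protein known for stabilising mRNAs with AU-rich elements. The values are FPKM, which are read numbers divided by gene model length and library size, placed on the mouse build GRCm38.

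In the acute phase response, interleukin 6 acts through its receptor and the transcription factor STAT3, and interleukin 1 acts through NF-kB. C/EBP factors take part in both arms. Hepatocytes then secrete scavengers of free haemoglobin and haem (haptoglobin and hemopexin), the HDL-associated serum amyloid A proteins, the pentraxin serum amyloid P, the drug-binding orosomucoids and the siderophore-binding lipocalin 2, while albumin, transthyretin and other negative acute phase proteins fall. In mice, serum amyloid P is a major acute phase protein.

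The libraries held 15413306 to 17108184 whole reads each, and the 10 genes took 3.57 to 3.67% of them in HuR libraries and 3.06 to 3.25% in beta-Gal libraries. Elavl1 was at 2434, 1662 and 1709 FPKM in HuR libraries and 5.45, 5.91 and 5.62 FPKM in beta-Gal libraries, as the labels say; reads of the virus and of the cells' own gene cannot be told apart. Whether replicates were separate animals or cultures is not stated in the labels. The p-values therefore reflect the variation among these 6 libraries alone, which may be technical. HuR replicate 1 stood apart for NF-kB genes, so counts are also given without it. The hepatocyte marker albumin (Alb) was at 13268 to 15468 FPKM in all libraries. Of 11 hepatocyte markers, 7 had a higher mean and 4 a lower mean in HuR than in beta-Gal libraries. At a limma adjusted p under 0.05, 3 were higher (Alb, Serpina1c and Fabp1) and 1 lower, beside 20.7% and 24.8% of all genes tested. The lower one was Cps1, with a log2 difference of -0.62 (limma adjusted p = 3.23e-04). Without HuR replicate 1, Alb and Fabp1 were higher and Apob and Cps1 lower. The 8 neutrophil markers reached at most 0.342 FPKM in HuR and 0.0166 FPKM in beta-Gal libraries, and 4 of them were at 0 in all 6 libraries, which bears on Lcn2, a gene that neutrophils also express. The summed level of those 8 markers was 0.0184 to 0.510 FPKM in HuR and 0.0159 to 0.0166 FPKM in beta-Gal libraries. Of 10 Kupffer cell and macrophage markers, 8 had a higher mean and 2 (Clec4f and Vsig4) a lower mean in HuR than in beta-Gal libraries, and the groups overlapped for all but Cd68. The 8 that were too low to test, the defining marker Clec4f among them, reached at most 0.818 FPKM in HuR and 0.648 FPKM in beta-Gal libraries. The 10 summed to 32.9 to 40.6 FPKM in HuR and 18.3 to 22.7 FPKM in beta-Gal libraries, most of it from Cd68, a lysosomal protein (39.5, 30.5 and 29.5 FPKM in HuR, against 16.6, 18.5 and 19.8 FPKM in beta-Gal libraries). Markers of endothelial cells summed to 7.40 to 8.64 FPKM in HuR and 5.67 to 6.05 FPKM in beta-Gal libraries, of stellate cells to 0.430 to 0.799 and 0.370 to 0.554 FPKM in HuR and beta-Gal libraries, and of bile duct cells, almost all Spp1, to 180 to 198 and 138 to 151 FPKM in HuR and beta-Gal libraries. The mean was higher in HuR than in beta-Gal libraries for 8 of 8 endothelial, 5 of 8 stellate and 6 of 6 bile duct markers. The part of these markers in the results was not tested.

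Of the 10 acute phase genes, 9 rose in HuR cells, 0 fell and Saa3 did not pass the test. All 10 had a positive log2 difference, so 0 were lower at an unadjusted p under 0.05 with limma as well. The background was 20.7% of 11281 genes tested called higher and 24.8% called lower (45.5% in all), with a limma adjusted p under 0.05 on log2(FPKM + 1). The acute phase genes are abundant, and among the 968 genes with a mean of at least 50 FPKM, 38.3% were higher and 16.1% lower, a comparison chosen after seeing the data. The rises were small, with a ratio of means between 1.11 for Hpx and 1.84 for Saa4. The median log2 difference of the 10 genes was 0.34, beside 0.11 for the 968 abundant genes and -0.01 for all genes tested. In bulk RNA, more cells of a type and more RNA per cell cannot be told apart. For all 9 genes that rose, each HuR library lay above each beta-Gal library, as did 27.4% of all genes tested, while for 30.7% each HuR library lay below. The same 9 genes were called without HuR replicate 1.

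**Figure D1:**
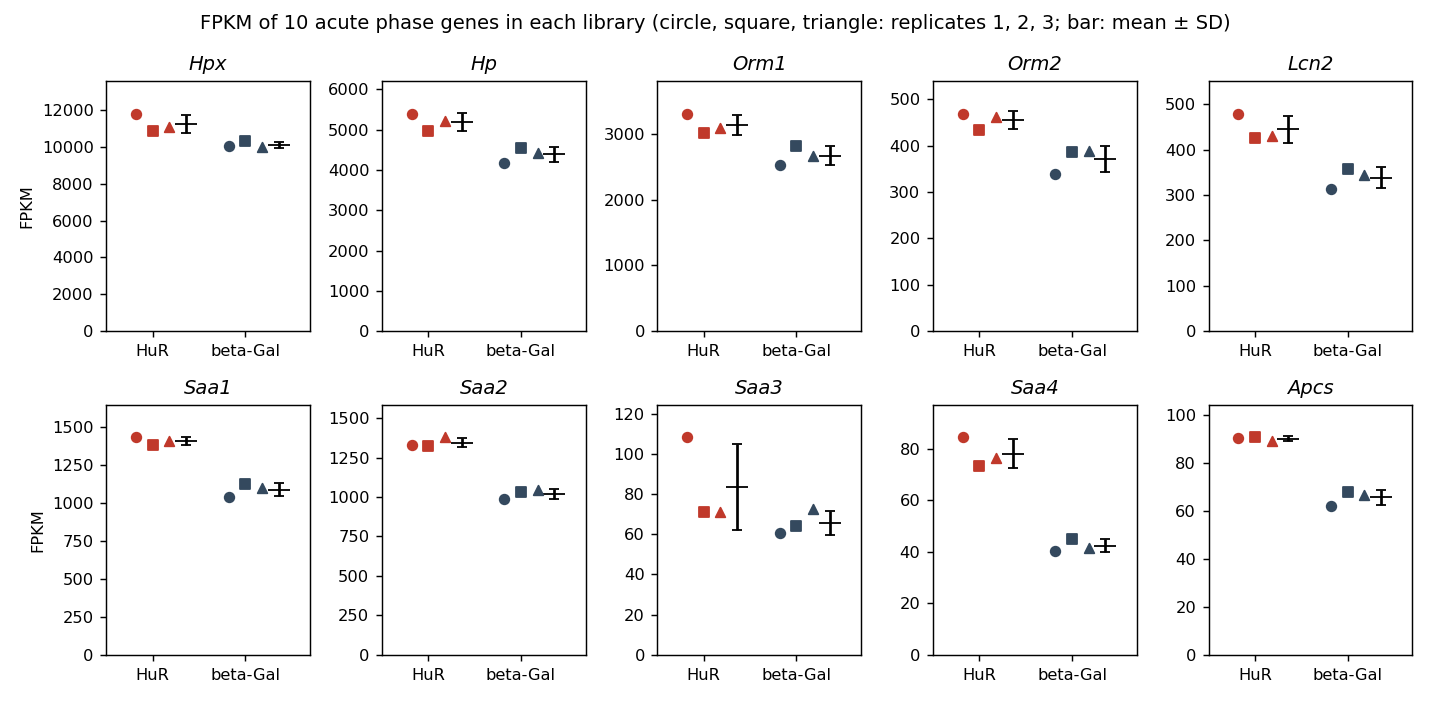
Each panel plots the FPKM of 1 gene, from 0, in 3 HuR libraries (red, left) and 3 beta-Gal libraries (dark blue, right), with the mean ± SD as a bar beside the points. The groups overlapped for Saa3 alone, where HuR replicate 1 was at 108 FPKM and the other HuR libraries at 70.9 and 71.2 FPKM.

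The size of these differences depended on how libraries were scaled. The FPKM of HuR replicate 1 were 1.06 times what its own listed reads give, and those of the other HuR libraries 0.986 and 0.988 times, against 0.976 to 0.985 times in beta-Gal libraries. Scaled to the listed reads instead, an alternative added after seeing the data, the same number of acute phase genes was higher, 9 of 10, with a median log2 difference of 0.30. Over all 11281 genes tested, 2010 were higher and 3063 lower with that scaling. The FPKM of a library summed to 408937 to 440731 in HuR and 386760 to 393371 in beta-Gal libraries. With every library scaled to the same FPKM sum (TPM scaling), all genes tested had a median log2 difference of -0.10, with 1543 called higher and 3732 lower against 2334 higher and 2803 lower as deposited, and 7 of the 10 acute phase genes were higher, with a median of 0.23. Hpx was then at 0.04 (limma adjusted p = 0.184) and Orm1 at 0.12 (limma adjusted p = 0.0586). With quantile normalization 5 of the 10 were higher, beside 2278 higher and 2701 lower of all 11281 genes tested. That method gives the most abundant ranks the same value in every library, which sets the difference of Hpx and Hp to 0 by construction.

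**Figure D2:**
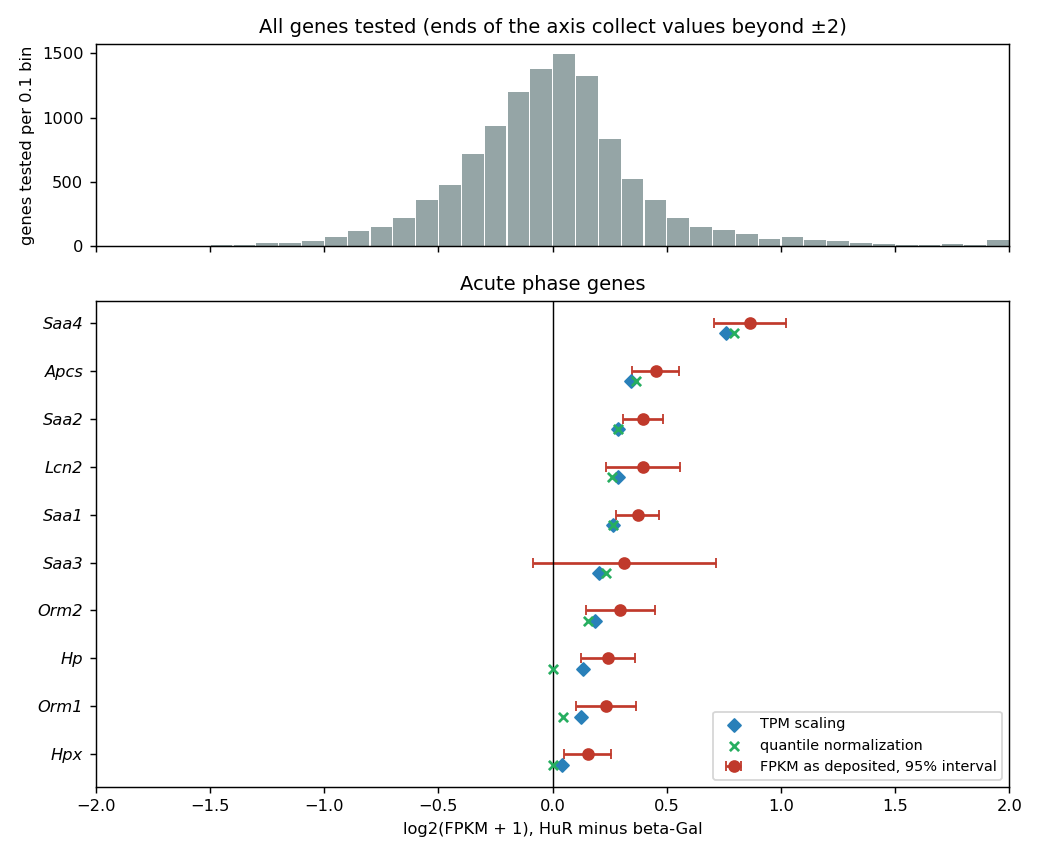
The upper panel counts all 11281 genes tested by their log2 difference, HuR minus beta-Gal. The lower panel shows the 10 acute phase genes as deposited (red, with 95% intervals), under TPM scaling (blue) and under quantile normalization (green), where Saa4 stays to the right at 0.76 to 0.87 and Hpx lies between 0 and 0.15.

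Saa1 and Saa2 encode the main circulating acute phase serum amyloid A proteins, which travel on HDL. Saa1 (ENSMUSG00000074115, chromosome 7 from 46740497 to 46742980, minus strand) was at 1429, 1378 and 1405 FPKM in HuR libraries and at 1037, 1121 and 1096 FPKM in beta-Gal libraries. The HuR libraries were all above the beta-Gal libraries. The means were 1404 ± 25.3 FPKM in HuR and 1085 ± 43.2 FPKM in beta-Gal libraries (SD, n = 3 each), a difference of 0.37 in log2 units (SE 0.04, limma adjusted p = 5.71e-04). Saa2 (ENSMUSG00000057465, chromosome 7 from 46751790 to 46754313, plus strand) was at 1332, 1323 and 1378 FPKM in HuR libraries and at 987, 1032 and 1047 FPKM in beta-Gal libraries. Its groups did not overlap either, and the log2 difference was 0.40 (SE 0.04, limma adjusted p = 3.39e-04). The ratio of Saa2 to Saa1 was 0.958 ± 0.0246 in HuR and 0.942 ± 0.0194 in beta-Gal libraries (SD, n = 3 each). That is a log2 difference of 0.02 with an exact two-sided permutation p of 0.4, also when adjusted over the 4 pairs of genes compared.

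The pair is close in sequence, and reads could be exchanged between the genes or lost. Their coding sequences are 95.1% identical over 366 aligned bases. In the annotated transcripts, 31.1% of the 50-base stretches of Saa1 also occur in Saa2, 8.96% of the 100-base stretches and 2.11% of the 150-base stretches. Summed as 1 gene, Saa1 and Saa2 had a difference of 0.38 in log2 units (SE 0.04, limma adjusted p = 4.06e-04). Their gene models are also long because they include annotated retained introns, 2478 bp for Saa1 against an mRNA of 609 bases, so the FPKM is lower than it would be per mRNA. With all its reads divided by the length of the mRNA, Saa1 came to 5712 ± 103 in HuR and 4414 ± 176 in beta-Gal libraries (SD, n = 3 each), above Orm1 at 3135 ± 151 in HuR and 2668 ± 144 in beta-Gal libraries on the same scale.

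Saa4, the constitutive serum amyloid A of HDL, had the largest difference of the 10 genes. It (ENSMUSG00000040017, chromosome 7 from 46727998 to 46732603, minus strand) was at 84.4, 73.4 and 76.4 FPKM in HuR libraries and at 40.4, 45.2 and 41.6 FPKM in beta-Gal libraries. The lowest HuR library was well above the highest beta-Gal library. The log2 difference was 0.87 (SE 0.07, 95% interval 0.71 to 1.02, limma adjusted p = 1.53e-04). The ratio of Saa4 to Saa1 was 0.0591, 0.0533 and 0.0544 in HuR libraries and 0.0389, 0.0403 and 0.0380 in beta-Gal libraries. These ratios, which do not depend on scaling between libraries, did not overlap. Their log2 difference was 0.51, with p = 0.1 by an exact two-sided permutation, which 3 against 3 libraries cannot go below, or 0.2 adjusted over the 4 pairs of genes compared.

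Saa3, an isoform that in mice is also made by macrophages and fat cells, did not pass the test. It (ENSMUSG00000040026, chromosome 7 from 46711998 to 46715700, minus strand) was at 108, 70.9 and 71.2 FPKM in HuR libraries and at 60.8, 64.1 and 72.5 FPKM in beta-Gal libraries. HuR replicate 1 was high, while the other HuR libraries lay within the beta-Gal range. The log2 difference was 0.31 (95% interval -0.09 to 0.71, limma adjusted p = 0.171), and 0.11 without HuR replicate 1 (limma adjusted p = 0.256).

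The promoters of the 4 serum amyloid A genes are shown so that their C/EBP matches can be compared. Each line gives 250 bases before and 50 bases after the start of transcription from RefSeq on GRCm38.p6, 5′ to 3′ on the gene's strand, for Saa1 at chr7:46742931-46743230 (minus strand), Saa2 at chr7:46751583-46751882 (plus strand), Saa3 at chr7:46715627-46715926 (minus strand) and Saa4 at chr7:46732554-46732853 (minus strand). Capitals mark matches to the C/EBP motif TTGCNNAA on either strand.
Saa1: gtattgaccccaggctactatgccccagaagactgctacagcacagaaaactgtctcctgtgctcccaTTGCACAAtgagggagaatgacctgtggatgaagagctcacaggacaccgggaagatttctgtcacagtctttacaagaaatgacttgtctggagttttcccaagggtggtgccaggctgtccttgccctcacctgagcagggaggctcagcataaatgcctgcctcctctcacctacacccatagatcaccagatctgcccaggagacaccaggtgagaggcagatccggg
Saa2: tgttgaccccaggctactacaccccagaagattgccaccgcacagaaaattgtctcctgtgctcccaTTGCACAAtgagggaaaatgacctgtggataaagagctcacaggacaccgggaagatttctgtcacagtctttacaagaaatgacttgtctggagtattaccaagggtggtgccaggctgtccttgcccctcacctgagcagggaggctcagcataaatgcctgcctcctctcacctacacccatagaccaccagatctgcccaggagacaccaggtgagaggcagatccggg
Saa3: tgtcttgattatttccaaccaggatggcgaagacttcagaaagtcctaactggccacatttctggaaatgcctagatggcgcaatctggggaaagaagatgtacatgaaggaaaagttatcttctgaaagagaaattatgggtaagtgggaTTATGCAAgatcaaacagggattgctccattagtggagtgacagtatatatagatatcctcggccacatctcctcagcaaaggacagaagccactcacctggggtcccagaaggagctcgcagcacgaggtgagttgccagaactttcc
Saa4: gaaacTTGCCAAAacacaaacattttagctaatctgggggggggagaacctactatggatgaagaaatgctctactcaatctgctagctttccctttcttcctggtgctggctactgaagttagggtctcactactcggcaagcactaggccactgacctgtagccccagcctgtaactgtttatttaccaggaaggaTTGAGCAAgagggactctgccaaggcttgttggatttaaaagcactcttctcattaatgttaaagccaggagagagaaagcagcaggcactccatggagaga

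The promoters of Saa1 and Saa2 are 95.3% identical, with the same C/EBP match starting 182 and 183 bases before the start. That of Saa4 is 46.8% identical to that of Saa1 and holds 2 matches, 245 and 52 bases before the start, and that of Saa3 is 50.9% identical to that of Saa1 and holds 1 match, 99 bases before the start. Promoters were found for 8 of the 10 genes (all but Hp and Orm1), and 7 of these 8 held a C/EBP match, as did 10.8% of 32851 mouse promoters of the same length. An NF-kB motif (GGG, any 2 bases, TTTCC, either strand) was found in 0 of the 8 windows and in 1.63% of all promoters. A STAT3 motif (TTCNNGGAA, either strand) was found in 1 of the 8, that of Apcs, and in 4.81% of all. The exact TATA box letters TATAAA (gene strand) were found in 1 of the 8, that of Orm2, and in 8.32% of all. Only these exact patterns were searched, so variants of the C/EBP, NF-kB, STAT3 and TATA box motifs would have been missed. No match overlapped one of another motif in the 8 windows. A match is a description of the letters and shows no binding.

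Saa4 is the only one of the 10 genes with an ATTTA in its annotated 3′ UTR (GENCODE M21), the pentamer at the core of AU-rich elements that HuR can bind. Of 20607 coding genes, 61.6% have at least 1. The site, in capitals, begins at base 715 of a 3′ UTR of 1524 bases, while the other 9 genes have 3′ UTRs of 69 to 232 bases. Binding was not measured, and the part of this site in the difference of Saa4 was not tested.
Saa4 site: gatggtatacATTTAtaatcctagc

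Apcs encodes serum amyloid P, a pentraxin that binds amyloid and microbial surfaces. It (ENSMUSG00000026542, chromosome 1 from 172893961 to 172895041, minus strand) was at 90.8, 90.8 and 89.2 FPKM in HuR libraries and at 62.2, 68.2 and 67.0 FPKM in beta-Gal libraries. The HuR libraries lay close together and above all beta-Gal libraries. The log2 difference was 0.45 (SE 0.04, limma adjusted p = 3.58e-04). Its level rests on 1008 to 1482 reads per library. The RefSeq promoter, at chr1:172895005-172895304 on the minus strand of GRCm38.p6, is shown for its STAT3 match, in capitals, which starts 244 bases before the start.
Apcs: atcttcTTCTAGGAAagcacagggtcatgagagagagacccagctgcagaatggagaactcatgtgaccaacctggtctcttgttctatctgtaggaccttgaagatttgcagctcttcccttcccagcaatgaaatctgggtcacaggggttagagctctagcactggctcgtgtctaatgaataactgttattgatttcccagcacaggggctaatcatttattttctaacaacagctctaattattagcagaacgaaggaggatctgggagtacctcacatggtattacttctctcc

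Hp and Hpx encode the haemoglobin and haem scavengers haptoglobin and hemopexin, and were the most abundant of the 10 genes per gene model. Hp (ENSMUSG00000031722, chromosome 8 from 109575128 to 109579172, minus strand) was at 5397, 4959 and 5204 FPKM in HuR libraries and at 4182, 4551 and 4429 FPKM in beta-Gal libraries. The groups were apart, with a difference of 0.24 in log2 units (SE 0.05, limma adjusted p = 0.00784). Hpx (ENSMUSG00000030895, chromosome 7 from 105591613 to 105600137, minus strand) was at 11794, 10866 and 11082 FPKM in HuR libraries and at 10038, 10300 and 9993 FPKM in beta-Gal libraries. Its groups were closer, with a difference of 0.15 in log2 units (SE 0.04, limma adjusted p = 0.0278). The call of Hpx was lost without HuR replicate 3 (adjusted p = 0.0520) and without beta-Gal replicate 1, 2 or 3 (adjusted p = 0.0868, 0.0687 and 0.108). The ratio of Hp to Hpx was 0.461 ± 0.0073 in HuR and 0.434 ± 0.015 in beta-Gal libraries (SD, n = 3 each), with no overlap and an exact two-sided permutation p of 0.1, or 0.2 adjusted over the 4 pairs.

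The orosomucoids are lipocalin-fold plasma glycoproteins that bind drugs. Orm1 (ENSMUSG00000039196, chromosome 4 from 63344560 to 63348163, plus strand) was at 3303, 3012 and 3091 FPKM in HuR libraries and at 2527, 2815 and 2662 FPKM in beta-Gal libraries. Orm2 (ENSMUSG00000061540, chromosome 4 from 63362449 to 63365878, plus strand) was at 469, 434 and 462 FPKM in HuR libraries and at 339, 386 and 388 FPKM in beta-Gal libraries. In both genes the HuR libraries were the higher ones. The log2 differences were 0.23 for Orm1 (SE 0.05, limma adjusted p = 0.0135) and 0.30 for Orm2 (SE 0.06, limma adjusted p = 0.00903). The ratio of Orm2 to Orm1 was 0.145 ± 0.00398 in HuR and 0.139 ± 0.00607 in beta-Gal libraries (SD, n = 3 each, exact two-sided permutation p = 0.3, or 0.4 adjusted over the 4 pairs). The third orosomucoid, Orm3, rose by 0.56 (limma adjusted p = 0.00217), with means of 40.2 ± 4.04 FPKM in HuR and 26.9 ± 2.00 FPKM in beta-Gal libraries. The coding sequences of Orm1 and Orm2 are 89.9% identical, and 20.4% of the 50-base stretches and 0% of the 150-base stretches of Orm1 occur in Orm2 or Orm3. Summed as 1 gene, the 3 orosomucoids differed by 0.24 (SE 0.06, limma adjusted p = 0.0115).

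Lcn2 encodes lipocalin 2, which withholds iron from bacteria by binding their siderophores. It (ENSMUSG00000026822, chromosome 2 from 32384633 to 32388252, minus strand) was at 479, 425 and 429 FPKM in HuR libraries and at 312, 358 and 343 FPKM in beta-Gal libraries. HuR replicate 1 was the highest, and the groups did not overlap. The log2 difference was 0.39 (SE 0.07, limma adjusted p = 0.00389).

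In HuR libraries the level per gene model ran, from high to low, Hpx, Hp, Orm1, Saa1, Saa2, Orm2, Lcn2, Apcs, Saa3 and Saa4. The ranges over libraries overlapped between Orm2 and Lcn2, between Apcs and Saa3 and between Saa3 and Saa4. In beta-Gal libraries Saa3 stood above Apcs with overlapping ranges, Saa4 was lowest with no overlap, and Saa1 and Saa2 overlapped, as did Orm2 and Lcn2. The rest of the order was the same.

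The serum amyloid A genes and the orosomucoids lie in clusters, and some neighbours of the acute phase genes differed more than the genes themselves. Gm11212, an unprocessed pseudogene on the same strand 2247 bp after Orm1, was at 29.9, 9.63 and 7.99 FPKM in HuR libraries and at 1.163, 0.928 and 1.04 FPKM in beta-Gal libraries. Every HuR library was several times above every beta-Gal library, and HuR replicate 1 was highest. The beta-Gal libraries alone would not have brought it past the filter on low values. The log2 difference was 2.81 (SE 0.44), or 2.26 without HuR replicate 1. Because the HuR libraries were needed to pass the filter, the call of Gm11212 is not counted here. The reads numbered 455 in the 3 HuR libraries and 33 in the 3 beta-Gal libraries, and 1.23% of the 50-base stretches of Gm11212 occur in an orosomucoid transcript. Orm3 follows Gm11212 on that strand and Orm2 follows Orm3 at 2937 bp. In the serum amyloid A cluster, the pseudogene Saa-ps lies 3825 bp after Saa1 on its strand, with 7, 2 and 0 reads in HuR libraries and 0 in every beta-Gal library, and Saa4 follows at 2183 bp. The part of position in these differences was not tested.

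Of the 9 other tested genes within 10 kb, 4 rose and 1 fell, beside 20.7% and 24.8% of all genes tested (45.5% in all). Txnl4b, a splicing-related gene 1076 bp from Hp on the other strand, was at 14.96, 15.6 and 17.6 FPKM in HuR libraries and at 8.67, 8.97 and 7.78 FPKM in beta-Gal libraries. Its log2 difference of 0.85 (SE 0.08, limma adjusted p = 2.88e-04) was more than that of Hp, and strand use in the counting is not stated in the sources used here. Trim3, next to Hpx, rose by 0.47 and 1110008P14Rik, next to Lcn2, by 0.27 on the log2 scale. Dhx38, 9266 bp from Hp with Txnl4b between them, rose by 0.23 on that scale. Hps5, next to Saa2, fell by 0.47 on the log2 scale (limma adjusted p = 0.00326).

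**Figure D3:**
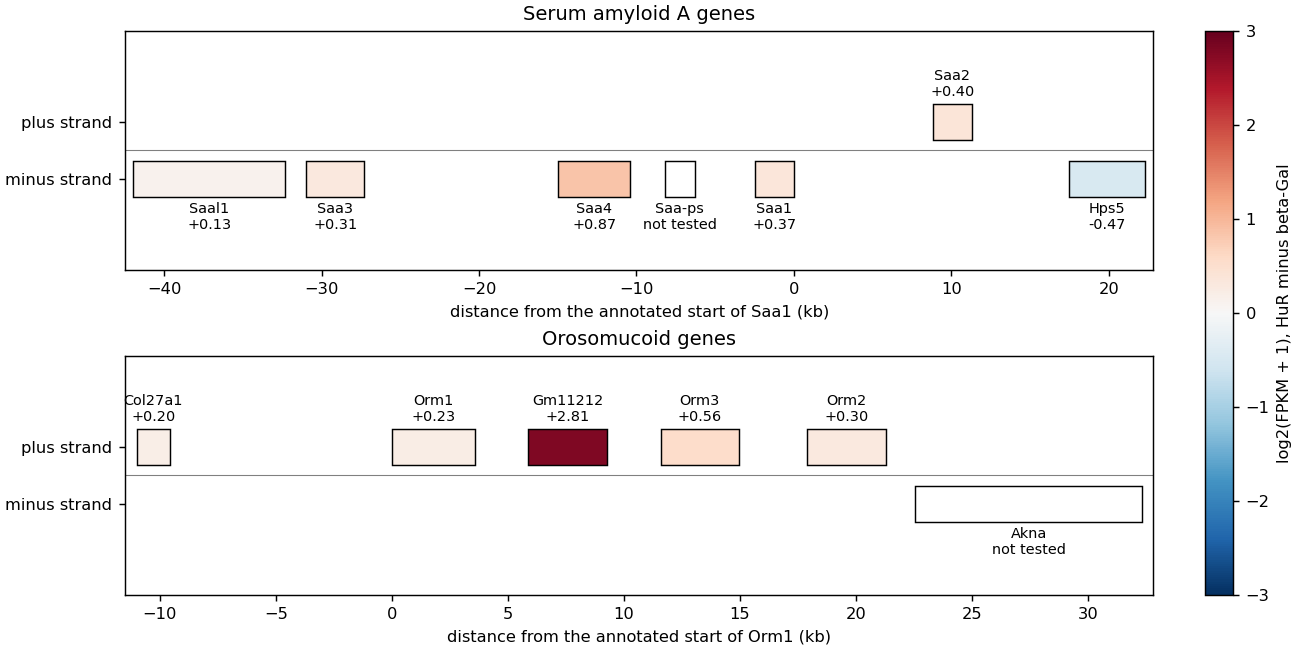
Gene models around the serum amyloid A genes (top) and the orosomucoids (bottom), drawn to scale by distance in kb from the start of Saa1 or Orm1, plus strand above and minus strand below, coloured and labelled by log2 difference, HuR minus beta-Gal. Outer genes are drawn only to the edge. Gm11212 is at 2.81 beside orosomucoids at 0.23 to 0.56, but it passed the filter on low values only with HuR libraries. Its call is therefore not counted.

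Of 22 other positive acute phase proteins, 13 rose, 1 fell and 8 did not pass the test, with a median log2 difference of 0.22. The shares of all genes tested were 20.7% higher and 24.8% lower. Many of the 22 had a mean of at least 50 FPKM. Among all genes at that level, 38.3% were higher and 16.1% lower, with a median log2 difference of 0.11. The leucine-rich glycoprotein Lrg1 was at 185, 178 and 180 FPKM in HuR libraries and at 137, 142 and 136 FPKM in beta-Gal libraries, a difference of 0.39 in log2 units (SE 0.03, limma adjusted p = 2.67e-04). The serpin Serpina3n rose by 0.29, complement factor B (Cfb) by 0.43 and angiotensinogen (Agt) by 0.22 on the log2 scale. Hamp, which encodes the iron hormone hepcidin, was the gene that fell, to 524, 436 and 398 FPKM in HuR libraries, against 672, 697 and 680 FPKM in beta-Gal libraries. Its groups did not overlap, and the log2 difference was -0.60 (SE 0.10, limma adjusted p = 0.00272). Crp, a minor acute phase protein in mice, was at 14.1, 11.2 and 13.3 FPKM in HuR libraries and at 13.9, 16.1 and 16.1 FPKM in beta-Gal libraries. Its log2 difference of -0.25 did not pass the test (limma adjusted p = 0.0749). Without HuR replicate 1, 14 of the 22 were called higher, with Cp and Il1rn gained and Itih3 lost. Those 14 include Il1rn, which was at 0.887, 1.13 and 1.14 FPKM in beta-Gal libraries. It passed the filter on low values only with HuR libraries, so its call is not a result here. Without that replicate 2 of the 22 fell, Hamp and Crp (limma adjusted p = 0.0377 for Crp). Crp was also called lower when scaled to the listed reads (limma adjusted p = 0.0340) and with voom on the recovered reads (limma voom adjusted p = 0.0400). Under TPM scaling 6 of these 22 rose and 2 fell, again Hamp and Crp (limma adjusted p = 0.0159 for Crp).

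Of 10 negative acute phase proteins, 3 rose, 0 fell and 7 did not pass the test, with a median log2 difference of 0.09. Of all genes tested, 20.7% rose and 24.8% fell. Of those with a mean of at least 50 FPKM, 38.3% rose and 16.1% fell, with a median of 0.11. The 3 were Alb (albumin), Apoa2 (an HDL apolipoprotein) and Fetub (fetuin B), with log2 differences of 0.15, 0.20 and 0.15, where Apoa2 turned to -0.031 under quantile normalization. Alb was at 15468, 14431 and 14672 FPKM in HuR libraries and at 13275, 13617 and 13268 FPKM in beta-Gal libraries (limma adjusted p = 0.02496), a difference as large as that of Hpx. Without HuR replicate 1 the same 3 rose. Under TPM scaling none of these 10 was higher, and Ahsg (fetuin A) and Rbp4 (retinol-binding protein) were lower. The number that rose was 1 (Fetub), 0 and 1 (Apoa2) when beta-Gal replicate 1, 2 or 3 was left out.

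Of 14 receptors and kinases of the cytokine and glucocorticoid pathways, 4 rose and 0 fell, with a median log2 difference of 0.08. Of all genes tested, 20.7% rose and 24.8% fell, with a median of -0.01. The interleukin 6 receptor Il6ra was at 4.25, 3.93 and 3.55 FPKM in HuR libraries and at 1.99, 1.92 and 2.19 FPKM in beta-Gal libraries, a difference of 0.69 in log2 units (SE 0.08, limma adjusted p = 6.71e-04). The interleukin 1 receptor Il1r1 was at 6.52, 3.84 and 4.02 FPKM in HuR libraries and at 2.34, 2.30 and 2.48 FPKM in beta-Gal libraries (limma adjusted p = 0.0109). In both receptor genes the groups did not overlap. The adaptor Myd88 rose by 0.43 and the accessory receptor chain Il1rap by 0.16. Without HuR replicate 1, 3 of the 14 rose (Il1r1, Il6ra and Myd88) and 3 fell (Il6st, the shared interleukin 6 receptor chain, the kinase Jak2 and Nr3c1, the glucocorticoid receptor). Over all genes, 2114 of 10911 tested were higher and 2896 lower without that library.

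Of 13 tested transcription factors of the response, 6 rose and 1 fell, with a median log2 difference of 0.26. Among all genes tested, 20.7% rose and 24.8% fell. Cebpb, whose product binds C/EBP sites of acute phase genes, was at 132, 93.5 and 86.3 FPKM in HuR libraries and at 62.9, 64.1 and 65.3 FPKM in beta-Gal libraries. Its log2 difference was 0.66 (SE 0.15, limma adjusted p = 0.0108). Cebpa, a C/EBP factor of the resting hepatocyte, fell to 50.9, 55.1 and 57.0 FPKM in HuR libraries, against 80.9, 80.2 and 84.4 FPKM in beta-Gal libraries. That is a difference of -0.58 in log2 units (SE 0.05, limma adjusted p = 2.46e-04). Stat3 was at 22.2, 19.2 and 17.7 FPKM in HuR libraries and at 17.1, 15.9 and 15.7 FPKM in beta-Gal libraries, a log2 difference of 0.26 (limma adjusted p = 0.0422). Nfkb1, Nfkb2, Relb and Maz also rose, by 0.86, 0.50, 0.39 and 0.11 on the log2 scale, Maz turning to -0.0014 under TPM scaling. Without HuR replicate 1, 7 rose and 1 fell, and Cebpb was at 0.48. Without beta-Gal replicate 1, 2 or 3, Cebpb alone rose each time.

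Of 9 tested feedback inhibitors of these pathways, 5 rose and 0 fell, with a median log2 difference of 0.72. All genes tested had 20.7% higher and 24.8% lower. Socs3, which blocks interleukin 6 signalling, was at 12.9, 5.85 and 4.01 FPKM in HuR libraries and at 3.23, 2.56 and 2.33 FPKM in beta-Gal libraries, a difference of 1.08 in log2 units (SE 0.35, limma adjusted p = 0.0423). Zfp36, which encodes tristetraprolin, a destabiliser of AU-rich mRNAs, was at 64.8, 17.4 and 15.8 FPKM in HuR libraries and at 6.14, 5.32 and 6.61 FPKM in beta-Gal libraries (1.96, SE 0.50, limma adjusted p = 0.0181). In both genes HuR replicate 1 was far above the other HuR libraries, which were above all beta-Gal libraries. The NF-kB target Nfkbia was at 174, 28.4 and 25.7 FPKM in HuR libraries and at 17.7, 20.7 and 17.9 FPKM in beta-Gal libraries, and did not pass the test (limma adjusted p = 0.143). Without HuR replicate 1, 7 of the 9 rose, with Socs3 at 0.67 and Zfp36 at 1.33. Without HuR replicate 2, 3 rose, and without beta-Gal replicate 1, 2 or 3 the number was 1 (Pias3), 0 and 1 (Zfp36).

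**Figure D4:**
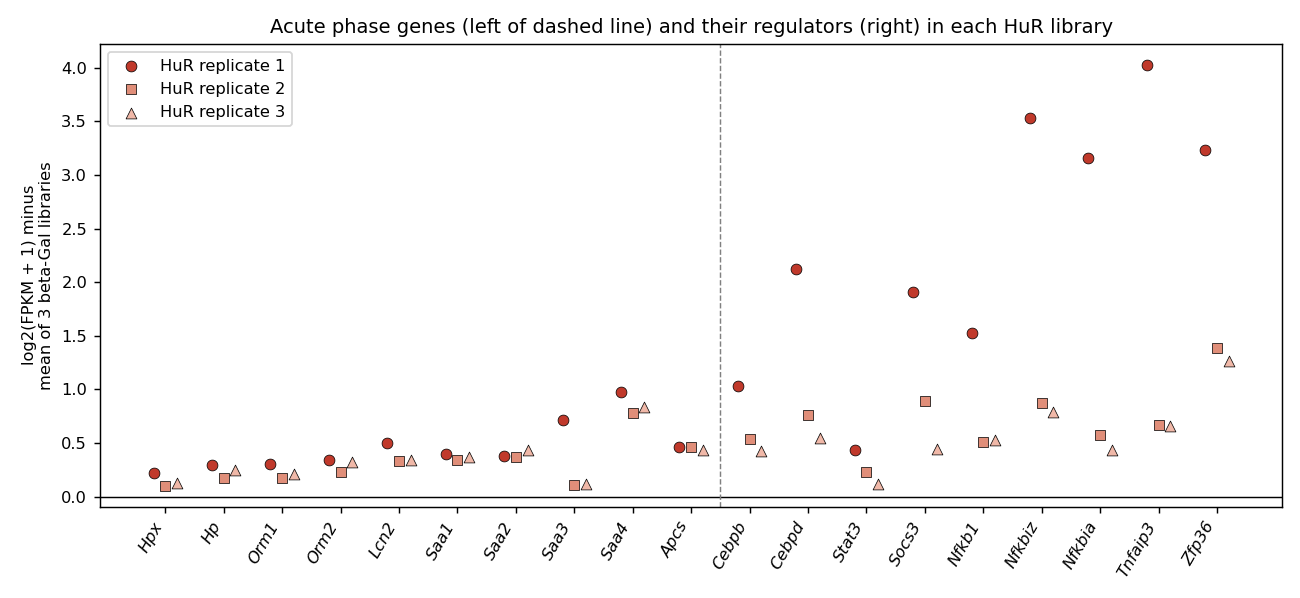
Each point is log2(FPKM + 1) of 1 HuR library minus the mean of the 3 beta-Gal libraries, for the 10 acute phase genes (left of the dashed line) and 9 regulators of the response (right). HuR replicate 1 is far above the other HuR libraries for Nfkbiz, Nfkbia, Tnfaip3 and Zfp36, and among the acute phase genes its largest gap is in Saa3, at 0.71 against 0.11 and 0.12.

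Of 10 receptors and partners of the acute phase proteins, 5 were tested. The hemopexin and HDL receptors rose, and none fell, beside 20.7% of all genes tested higher and 24.8% lower. Lrp1, the receptor for hemopexin with haem, was at 18.9, 22.2 and 21.4 FPKM in HuR libraries and at 16.5, 15.6 and 14.9 FPKM in beta-Gal libraries (limma adjusted p = 0.00481). Scarb1, the HDL receptor, was at 9.21, 9.42 and 9.26 FPKM in HuR libraries and at 7.49, 7.50 and 7.61 FPKM in beta-Gal libraries (limma adjusted p = 0.00241). Ager, a receptor that serum amyloid A can bind, was at 2.30, 1.78 and 1.98 FPKM in HuR libraries and at 0.140, 0.0536 and 0.0548 FPKM in beta-Gal libraries. It passed the filter on low values only through the HuR libraries and so had to differ, and its call is not counted here. For Lrp1 and Scarb1 the groups did not overlap. Cd163, the haptoglobin and haemoglobin receptor of macrophages, was at 0 in every library. Hmox1, the haem-degrading enzyme, was at 86.9, 45.8 and 49.7 FPKM in HuR libraries and at 42.4, 38.2 and 39.3 FPKM in beta-Gal libraries, and did not pass the test (limma adjusted p = 0.0965). Tlr2, a receptor that serum amyloid A can activate, was at 20.6, 7.90 and 7.85 FPKM in HuR libraries and at 11.96, 15.7 and 15.2 FPKM in beta-Gal libraries (limma adjusted p = 0.443). In both genes HuR replicate 1 was the highest library. Without it Hmox1 rose by 0.25 on the log2 scale (limma adjusted p = 0.0166), Tlr2 fell by 0.78 on the log2 scale (limma adjusted p = 0.00279), and Lrp1 and Scarb1 still rose.

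Among genes with a mean of at least 50 FPKM, those with a profile over the 6 libraries closest to the median profile of the acute phase genes were U2af1, Hspd1, Timm8b, mt-Tp and Ctsz. Their root mean square distances from it were 0.00746, 0.0272, 0.0350, 0.0375 and 0.0402 in log2 units. Their log2 differences, close to those of the acute phase genes by this choice, were 0.31 to 0.34.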

How the data were processed

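The submitters' processing notes name the build GRCm38.p6 and, without a role, DESeq2 1.16.1, featureCounts 1.5.0-p3 and HISAT2 2.0.5. The authors deposited FPKM per gene for 6 libraries. Read length, strand and removal of ribosomal RNA are not given in the sources used here. All FPKM were whole multiples of the value of 1 read within 0.001, which gave the read numbers. 1 read on 1 kb is worth 0.0573 to 0.0664 FPKM. From the deposited FPKM, log2(FPKM + 1) of genes with at least 1 FPKM in at least 3 libraries was fitted with limma 3.58.1 (R 4.3.3) by group, with Benjamini-Hochberg adjustment over all genes tested (adjusted p under 0.05). All 10 acute phase genes passed that filter. Ratios within a library were tested by exact permutation. Named genes are the 10, their neighbours within 10 kb, up to 6 called genes per list with the smallest adjusted p, members of the feedback and binding lists, Elavl1 and the 5 most alike genes. Relb, Cebpd, Nfkbiz and genes called only under an alternative were named after their values were seen. The members and lists were chosen with earlier results of these data known. Promoters come from RefSeq, and transcripts and 3′ UTRs from GENCODE M21. Alternatives were another pseudocount, filter, scaling or block, voom, coding genes only, summed paralogs and each library left out.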

Additional observations from a re-analysis of the deposited data

How the results depend on the processing

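Saa1, Saa2, Saa4, Apcs and Lcn2 were called under every alternative in which they were separate genes, and Saa3 under none. Between 5 (quantile normalization) and 9 of the 10 genes were higher, or 7 of 8 with paralogs summed, and 0 lower in each. The count was 6 with no filter on low values and 8 to 9 with 1 library left out. The median log2 difference was 0.30 to 0.40 with 1 library left out. Over all genes, TPM scaling gave 1543 higher, and leaving out 1 library gave 1751 to 2114 higher and 2046 to 2896 lower. With no filter, 25016 genes were tested, of which 2529 were higher and 2468 lower. With no filter Hpx, Hp and Orm1 lost their call (limma adjusted p = 0.519, 0.155 and 0.113), as Orm2 did with quantile normalization (0.0726).

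The replicate numbers did not pair the libraries, since the correlations of same-numbered libraries were -0.029, 0.00067 and -0.014. With the replicate block 8 of the 10 genes were higher, Hpx being lost (limma adjusted p = 0.0663), and 2084 genes in all were higher and 2465 lower.

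With 1 library left out, the log2 difference was 0.0053 to 0.042 for Saa2 over Saa1, 0.46 to 0.54 for Saa4 over Saa1, 0.037 to 0.098 for Orm2 over Orm1 and 0.059 to 0.10 for Hp over Hpx. Under TPM scaling the sign turned for Ptges2 (-0.048), Ciz1 (-0.024), Maz (-0.0014), Rela (-0.022), Fga (-0.058) and Apoa1 (-0.044). Under quantile normalization it turned for Apoa2 (-0.031), Itih4 (-0.036), Itih3 (-0.051), Fga (-0.074), Apoa1 (-0.12) and Ttr (-0.018), and under median centring for Rbp4 (0.029). With 1 library left out it turned for Rela (-0.034 without HuR replicate 1, up to 0.15), Steap4 (-0.15 without HuR replicate 1, up to 0.63), Lyz2 (-0.086 without HuR replicate 2, up to 0.42), Ciz1 (-0.028 without HuR replicate 3, up to 0.12), Fga (-0.021 without HuR replicate 3, up to 0.091), Jak2 (-0.26 without HuR replicate 1, up to 0.013) and Rbp4 (-0.029 without beta-Gal replicate 2, up to 0.0015). With no filter, 1 negative acute phase protein, 2 transcription factors and 0 feedback inhibitors were higher, against 3, 6 and 5. The causes were not tested. The planned edgeR test was not run. With 3 libraries a group, the exact tests of ratios cannot go below 0.1.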
